A study of Homo sapiens with 6 samples.

Results

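The cadherins and the non-clustered protocadherins were examined in the human embryonic stem cell line H9, which is long established, and in arcuate neurons, neurons of a hypothalamic nucleus, that were made from H9 in culture. Members were the protein-coding entries of the counts table named CDH or PCDH followed by a number, with PCDH11X included, which gave 35 genes of the 61853 entries. Total RNA, depleted of ribosomal RNA, was sequenced from 3 libraries on day 0, before differentiation, and from 3 libraries on day 30. Per the labels' protocols, confluent H9 cells on matrigel were given sonic hedgehog, purmorphamine, SB431542 and LDN-193189, then B-27 and DAPT, and at the end BDNF. All 6 libraries come from this single cell line. Whether replicates came from separate cultures is not stated in the labels, and p-values therefore measure only how far these samples spread, which may be technical.

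Cadherins are calcium-dependent adhesion proteins that hold cells together by binding the same or a related cadherin on the next cell. The classical ones reach the actin skeleton through catenins, which bind their cytoplasmic tail. Epithelia and pluripotent stem cells are known for E-cadherin, whereas neural tissue is known for N-cadherin and for type II cadherins, whose combinations differ between brain nuclei. Non-clustered protocadherins, many of which are delta protocadherins, are related proteins. The delta protocadherins are found mainly in the nervous system, where they act in cell sorting, axon growth and synapse formation.

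The type of a classical cadherin is written in the first bases of its adhesive domain, which is why these stretches are shown. In type I cadherins the strand that is exchanged between partners carries 1 tryptophan, and in type II cadherins it carries 2. A search of the coding sequences found the type I pattern in all 5 type I members and the type II pattern in all 13 type II members, and neither in the other 17 members. The patterns were chosen to describe these known classes, so the match is a description and no test of the grouping. The stretches below have 36 bases each, from GENCODE release 29 transcripts (GRCh38), written 5′ to 3′ on the coding strand. Capitals mark the TGG codons of the strand.
CDH1, chr16:68808499-68808534, plus strand: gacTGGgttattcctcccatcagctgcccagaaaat
CDH3, chr16:68678209-68678244, plus strand: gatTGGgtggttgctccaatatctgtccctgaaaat
CDH2, chr18:28011879-28011914, minus strand: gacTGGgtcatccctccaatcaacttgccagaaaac
CDH10, chr5:24593293-24593328, minus strand: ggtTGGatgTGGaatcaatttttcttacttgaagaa
CDH18, chr5:19838792-19838827, minus strand: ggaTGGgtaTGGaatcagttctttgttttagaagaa
CDH6, chr5:31267633-31267668, plus strand: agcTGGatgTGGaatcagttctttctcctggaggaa
CDH11, chr16:65004675-65004710, minus strand: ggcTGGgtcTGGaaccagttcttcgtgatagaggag

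Total counts per library were 7178453 to 8794008 on day 0 and 5013643 to 12924842 on day 30. In a fit over all 18040 genes that passed a filter on low counts, 13827 (76.6%) differed between the days at an adjusted p under 0.05 (edgeR quasi-likelihood test with Benjamini-Hochberg adjustment over all genes). All 8 stem cell markers fell, all 9 neuron markers rose and 7 of 8 hypothalamic markers rose, POMC among them. RAX, the other one, was too low to test. Mesenchymal and neural crest markers set 1 library apart: their summed level was 182 CPM (counts scaled by the total count of the library) in day 30 replicate 1, 659 CPM in replicate 2 and 4660 CPM in replicate 3, against 240 to 329 CPM on day 0. Of 10 such markers, 6 were tested: 4 rose, FOXD3 fell to 0 on day 30 and PDGFRB did not pass. Endothelial markers summed to 4.75 to 8.38 CPM on day 30. Of 8 neural progenitor markers, 6 were tested: 1 rose, 3 fell and 2 did not pass. These progenitor markers summed to 1390 to 2130 CPM on day 0 and still to 982 to 1210 CPM on day 30. The part of progenitor cells in the member levels was not tested.

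Of the 35 members, 30 passed the filter and were tested, and 22 of them rose while 3 fell, all 25 by 2-fold or more. Over all genes tested, 39.8% rose and 36.8% fell. Changes of at least 2-fold made up 29.7% (higher) and 24.7% (lower). The median log2 change was 2.34 for the tested members and 0.08 for all genes. These figures describe and support nothing by themselves: 13 of the 22 reached the filter's cutoff of 1.21 CPM in every library of day 30 alone and entered the test through the day on which they were high, and CDH1 did so through day 0. Among the 16 members that reached it on both days, 9 rose, 2 fell and 5 did not pass the test. The CPM ranges of the days did not overlap for 25 of the 30 members, 22 higher and 3 lower on day 30, beside 43.5% and 35.9% of all genes. Each change is measured against the rest of the library's RNA, and in these bulk cultures fewer cells of a type and less RNA per cell cannot be told apart.

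**Figure D1:**
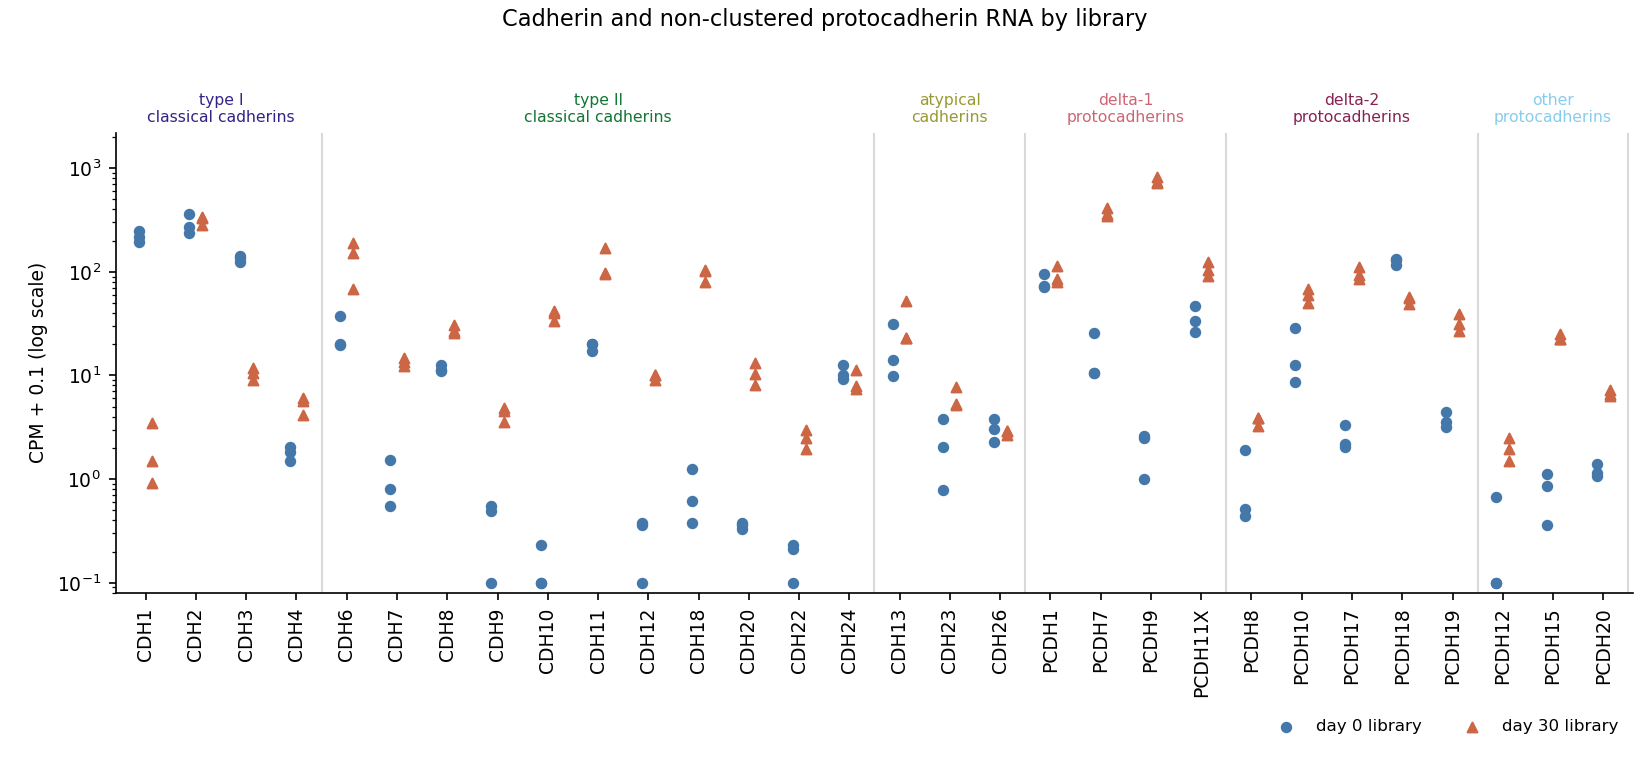
CPM plus 0.1 on a log axis for the 30 tested members, 1 point per library (circles day 0, triangles day 30), grouped by subfamily. CDH1 and CDH3 drop, CDH2 lies within 237 to 360 CPM in all 6 libraries, and PCDH9 climbs from at most 2.51 CPM to at least 717 CPM.

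E-cadherin and P-cadherin fell while N-cadherin did not pass the test. CDH1 (ENSG00000039068.20, chromosome 16, 68737225 to 68835548, hg38), which encodes E-cadherin, the main adhesion protein of epithelia, was at 217, 193 and 249 CPM in the day 0 libraries and at 0.826, 1.39 and 3.39 CPM in the day 30 libraries. Every day 30 library lay far under every day 0 library, and day 30 replicate 3 was the highest of its day. The log2 change was −7.18 ± 0.30 (SE, adjusted p = 6.23e-09, edgeR), a 145-fold fall. CDH3, which encodes P-cadherin, known from placenta and skin, was at 142, 137 and 125 CPM and then at 9.03, 10.4 and 11.6 CPM, a log2 change of −3.81 ± 0.12. Both days of CDH3 were tight, and their ranges were far apart.

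CDH2 (ENSG00000170558.10, chromosome 18, 27950966 to 28177446) encodes N-cadherin, the type I cadherin of neural tissue. It was at 237, 269 and 360 CPM on day 0 and at 280, 338 and 332 CPM on day 30, so the days overlapped. Its log2 value was 0.03 ± 0.17 (SE, adjusted p = 0.887, edgeR), and it ranged from −0.16 to 0.24 over the alternatives, with negative values when any of day 0 replicate 1, day 0 replicate 2 and day 30 replicate 2 was left out. Within a library, the log2 ratio of CDH2 to CDH1 counts, which is read here only for its change since the genes differ in length, was 0.13, 0.47 and 0.53 on day 0 and 7.72, 7.48 and 6.42 on day 30 (with 0.5 CPM added to each gene). Its means were 0.38 ± 0.22 and 7.21 ± 0.70 (SD, n = 3 per day), which lie 6.83 apart. The 2-sided exact permutation test gave p = 0.1, its minimum for 3 libraries against 3. The change depended on the amount added to each gene, as it was 7.17 with 0.1 CPM and 6.04 with 2 CPM.

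CDH4, which encodes R-cadherin of retina and brain, rose from a low level: 1.93, 1.39 and 1.71 CPM became 4.03, 5.57 and 5.98 CPM. The log2 change was 1.51 ± 0.29 and the days did not overlap. CDH15, the cadherin of skeletal muscle, was not tested, with 6 counts in all on day 0 and 2 on day 30. The muscle regulators MYOD1, MYOG and MYF5 were at 0 on both days.

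Type II cadherins, the largest of the groups, held the most rises. Of 13, 11 were tested and 10 rose, beside 39.8% of all genes tested. The median log2 change was 3.87. CDH24 was the exception, and 7 of the 10 reached the filter's cutoff on day 30 alone. The largest log2 change of any member was that of CDH10 (ENSG00000040731.10, chromosome 5, 24487100 to 24644978), a cadherin of the developing brain. It had 0.129, 0 and 0 CPM on day 0, which is a single count over 3 libraries, and 33.5, 40.2 and 41.9 CPM on day 30. The ratio of the days was 906 (95% counting interval 162 to 35800, counting error only), and the fitted log2 change of 9.32 depends on how such a low count is handled, from 8.81 to 11.33 over the alternatives. CDH18 (ENSG00000145526.12, chromosome 5, 19472951 to 20575873), another brain cadherin, was at 0.516, 0.279 and 1.14 CPM and then at 102, 103 and 79.6 CPM. Its log2 change was 7.02 ± 0.29 (adjusted p = 5.89e-09, edgeR), and its day 30 level per length was the highest of the type II members.

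CDH12 and CDH20 were all but silent on day 0. CDH12, which is expressed in brain, went from 0.258, 0.279 and 0 CPM to 10.1, 8.9 and 9.97 CPM, a log2 change of 5.63 ± 0.46. CDH20, known from the neural tube, went from 0.258, 0.279 and 0.227 CPM to 8.05, 10.3 and 13.2 CPM, a log2 change of 5.18 ± 0.38. In both genes every day 30 library lay far above the day 0 range. CDH22 and CDH9 were also low on both days. CDH22 had 0.129, 0 and 0.114 CPM (2 counts) on day 0 and 1.86, 2.86 and 2.39 CPM on day 30 (ratio 28.8, counting interval 7.66 to 242). CDH9, a cadherin of hippocampal and retinal synapses, had 0.387, 0 and 0.455 CPM and then 4.75, 3.48 and 4.39 CPM. CDH7, which marks parts of the developing hindbrain and neural crest, went from 1.42, 0.697 and 0.455 CPM to 14.6, 12.2 and 13.3 CPM, a log2 change of 3.87 ± 0.32.

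The other 3 that rose, CDH6, CDH8 and CDH11, were already well detected in stem cells. CDH8, which acts in sensory and cortical circuits, was at 12.5, 11.1 and 11 CPM and rose to 26.7, 25.8 and 30.5 CPM, a log2 change of 1.16 ± 0.14, with little spread on either day. CDH6, or K-cadherin, found in kidney and in early brain, was at 20.1, 19.6 and 37.2 CPM and then at 68.8, 191 and 153 CPM. Its day 30 libraries differed by up to 2.77-fold and its log2 change was 2.30 ± 0.36 (adjusted p = 0.000164, edgeR). CDH11, or OB-cadherin, which is known from bone-forming and mesenchymal cells as well as from brain, was at 17.2, 20.2 and 20.1 CPM and then at 94.2, 98 and 169 CPM, without overlap (log2 change 2.54 ± 0.22). Its high library was day 30 replicate 3, the one with the mesenchymal markers. Without it, the log2 change was 2.27 for CDH11 and 2.26 for CDH6, whose highest library was day 30 replicate 2. The part of the mesenchymal signal in the remaining libraries was not tested.

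CDH24 did not pass the test. It was at 12.5, 9.19 and 10.1 CPM on day 0 and at 7.22, 7.89 and 11.2 CPM on day 30, with a log2 value of −0.40 ± 0.21 (adjusted p = 0.108, edgeR). Without day 30 replicate 3 it passed, at −0.53 (adjusted p = 0.0427; 0.0427 to 0.291 over the alternatives). CDH5, the cadherin of endothelial junctions, held 16 counts on day 0 and 1 on day 30 (ratio 18.6, counting interval 2.89 to 781, lower on day 30), and CDH19, known from Schwann cell precursors, held 0 and 2 counts. Neither was tested. The endothelial gene PECAM1 was at 0.215 and 0.155 CPM, and the neural crest and glial factor SOX10 at 1.57 and 0.167 CPM, on day 0 and day 30.

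**Figure D2:**
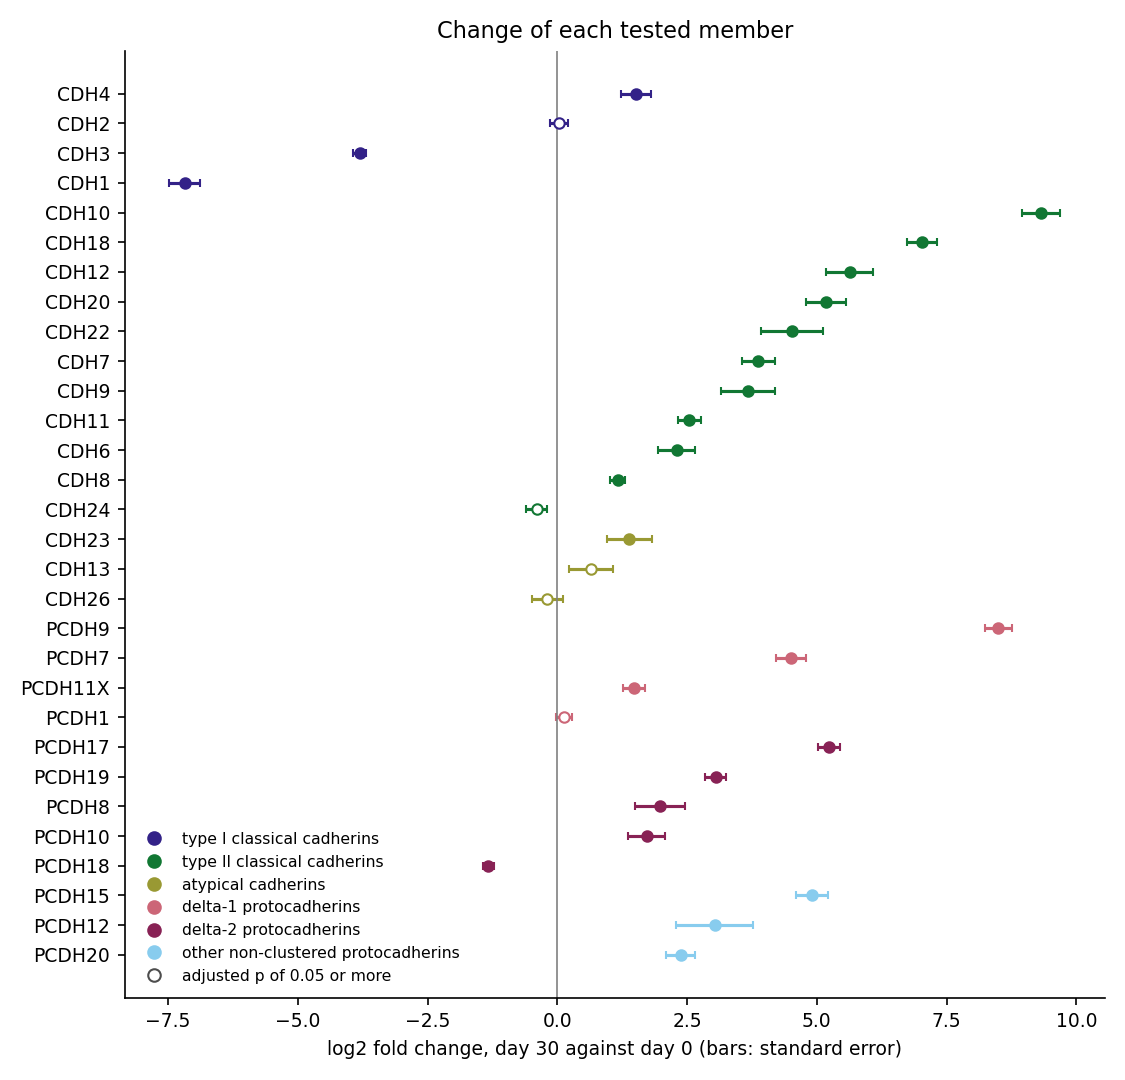
Log2 fold change of day 30 against day 0 for each tested member, with its standard error, coloured by subfamily and open where the adjusted p was 0.05 or more. The 10 type II rises run from 1.16 for CDH8 to 9.32 for CDH10, and CDH1, CDH3 and PCDH18 are the 3 filled points on the left.

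Among the atypical cadherins, which lack the usual catenin-binding tail or the usual domain number, 3 were tested. Of these, 1 rose, beside 39.8% of all genes tested. CDH23, a link of the hair cell bundle of the inner ear, was at 3.74, 1.95 and 0.682 CPM and then at 5.26, 5.03 and 7.58 CPM, a log2 change of 1.39 ± 0.44 (adjusted p = 0.0135, edgeR). Its day 0 libraries differed by 5.48-fold, the widest spread among members with a mean of at least 1 CPM. An opposite-strand gene, C10orf105, lies within it, and the strand setting of the counts is unknown. CDH13, or T-cadherin, which is held to the membrane by a lipid anchor, was at 9.8, 13.9 and 31.2 CPM and then at 23, 22.7 and 51.7 CPM. The days overlapped: day 0 replicate 3 lay above 2 of the day 30 libraries, and the highest value was in day 30 replicate 3, with its mesenchymal markers, whose part was not tested. Its log2 value of 0.65 ± 0.42 did not pass (adjusted p = 0.182, edgeR). It was 1.32 and passed without day 0 replicate 3 (adjusted p = 0.00818), and 0.24 without day 30 replicate 3 (adjusted p = 0.587). CDH26 was at 2.96, 3.69 and 2.16 CPM and then at 2.79, 2.55 and 2.79 CPM, which overlap, with a log2 value of −0.19 ± 0.29. CDH17, the cadherin of intestine, held 11 counts on day 0 and none on day 30, at least 4.27-fold lower against a floor of 3 counts over the group, and CDH16, of kidney, had 0 counts, which allows up to 0.126 CPM on day 0 and 0.109 CPM on day 30.

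The delta-1 protocadherins held the most abundant rises. A short stretch of their cytoplasmic tail, the CM3 motif, binds protein phosphatase 1. A fixed pattern for it was found in 3 of the 4 genes, PCDH1, PCDH9 and PCDH11X, and in none of the other 31 members. Only annotated coding sequences with a start codon and whole codons were searched. The miss in PCDH7 therefore does not show that it lacks the motif. The stretches below have 33 bases of coding sequence from GENCODE release 29 transcripts, with the codons of the motif in capitals.
PCDH1, chr5:141857439-141857471, minus strand: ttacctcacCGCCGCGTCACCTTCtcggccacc
PCDH9, chromosome 13, minus strand, across an exon junction: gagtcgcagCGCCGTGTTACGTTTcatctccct
PCDH11X, chromosome X, plus strand, across an exon junction: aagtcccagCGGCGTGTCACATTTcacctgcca

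PCDH9 (ENSG00000184226.15, chromosome 13, 66302834 to 67230445) is a protocadherin of cortex and other brain regions. It was at 0.902, 2.51 and 2.39 CPM on day 0 and at 734, 717 and 821 CPM on day 30. The days were far apart, with little spread on day 30, and the log2 change was 8.50 ± 0.26 (adjusted p = 1.26e-09, edgeR). PCDH7 (ENSG00000169851.16, chromosome 4, 30720415 to 31146805), which acts in axon growth, was at 25.5, 10.4 and 10.5 CPM and then at 342, 360 and 416 CPM, a log2 change of 4.51 ± 0.29. Day 0 replicate 1 was the high one of its day. PCDH11X, the X-linked copy of a pair with a near-identical Y-linked partner, was at 26.2, 33.1 and 46.5 CPM and then at 103, 90.8 and 125 CPM, a log2 change of 1.47 ± 0.21. Its reads can be assigned to the Y-linked copy, so its level is uncertain. PCDH1, which is also known from airway epithelium, was at 95, 70.6 and 72.1 CPM and then at 85.8, 78.7 and 114 CPM, which overlap. Its log2 value was 0.13 ± 0.15 (adjusted p = 0.430, edgeR).

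Delta-2 protocadherins lack the CM3 motif and act in cell movement and sorting in the early embryo and brain. Of the 5, 4 rose and 1 fell, beside 39.8% and 36.8% of all genes tested. PCDH17, which collects axons into bundles and sits at synapses, was at 3.22, 2.09 and 1.93 CPM and then at 112, 93.2 and 85 CPM, a log2 change of 5.24 ± 0.21. PCDH19, which partners with N-cadherin and is known from an X-linked epilepsy, was at 4.38, 3.48 and 3.07 CPM and then at 31.3, 27 and 39.3 CPM, a log2 change of 3.05 ± 0.20. Both rose in every day 30 library, far above the day 0 range. PCDH10, another axon growth protein, was at 8.51, 12.4 and 28.5 CPM and then at 49.4, 68.6 and 59.6 CPM. Day 0 replicate 3 was the high library again, and the log2 change of 1.72 ± 0.36 became 2.42 without it. PCDH8, which is taken up from synapses with N-cadherin, was low, at 1.8, 0.418 and 0.341 CPM and then at 3.82, 3.17 and 3.79 CPM, a log2 change of 1.98 ± 0.48 that was 3.04 in the highest of the alternatives.

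PCDH18 (ENSG00000189184.12, chromosome 4, 137518918 to 137532494) went the other way. It was at 134, 130 and 116 CPM on day 0 and at 55.2, 57 and 48.3 CPM on day 30, with tight groups that did not overlap. The log2 change was −1.33 ± 0.11 (adjusted p = 1.48e-06, edgeR). PCDH18 and PCDH10 lie 4310.3 kb apart on chromosome 4 with 1 protein-coding gene between them, and their changes had opposite signs.

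The other non-clustered protocadherins all rose, beside 39.8% of all genes tested. Each of them reached the filter's cutoff on day 30 alone and entered the test through the day on which it was high. PCDH15, the partner of CDH23 in the hair cell tip link, was at 0.258, 0.766 and 1.02 CPM and then at 25.1, 22.2 and 22.6 CPM, a log2 change of 4.91 ± 0.31. PCDH12, known from endothelium, rose from 0, 0 and 0.569 CPM (5 counts) on day 0 to 2.37, 1.86 and 1.4 CPM on day 30. Its log2 change was 3.03 ± 0.74 (adjusted p = 0.00329, edgeR), and 2.43 to 7.03 over the alternatives that tested it. Under a stricter filter on low counts PCDH12 was not tested. Its exons overlap those of RNF14 on the other strand by 108 bases. RNF14 held 2820 counts over all libraries against 59 for PCDH12, and the strand setting of the counts is unknown. The part of RNF14 reads in the PCDH12 counts was not tested. Of 8 endothelial markers, 3 could be tested and fell, and the other 5 were too low to test. Their part in the result was not tested. PCDH20 was at 0.967, 1.04 and 1.31 CPM and then at 6.24, 6.58 and 7.18 CPM, a log2 change of 2.38 ± 0.28. A second entry of the table on the same strand covers 95.8% of its exons and held the same counts in 5 of 6 libraries, so reads of this locus appear to have been divided between the entries, and the level printed here is uncertain.

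Levels of different genes were compared per kilobase of exon, with all annotated exons of a gene joined as its length. The order depends on this choice of length. In CPM, PCDH9 (757 ± 56.1) and PCDH7 (373 ± 38.5) lay above CDH2 (316 ± 31.9) on day 30. Per kilobase, CDH2 was the most abundant member on both days, at 58.3 ± 12.9 CPM per kb on day 0 and 63.9 ± 6.45 on day 30 (SD, n = 3). On day 0 it was followed by CDH1 (35.6 ± 4.57), CDH3 (21.6 ± 1.36), PCDH18 (19 ± 1.45) and PCDH1 (13.4 ± 2.31), where CDH3 and PCDH18 lay within their spreads of each other. On day 30 it was followed by PCDH7 (30.4 ± 3.15), PCDH9 (24.5 ± 1.81), CDH18 (19.5 ± 2.72) and PCDH1 (15.7 ± 3.2), where CDH18 and PCDH1 lay within their spreads of each other, while CDH1 had gone from place 2 to place 29 of the 35 members. The next places, PCDH17 (11.6 ± 1.68), CDH6 (11.1 ± 5.05) and CDH10 (10.5 ± 1.21), could not be told apart. Summed over the family, the level was 165 ± 16.3 CPM per kb on day 0 and 244 ± 20 on day 30 (2-sided exact permutation p = 0.1). Without length scaling the sum was 1020 ± 101 and 2450 ± 223 CPM.

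Type I cadherins held 69.9% ± 2.81 of the family's counts per kilobase on day 0 and 27.3% ± 1.41 on day 30 (SD, n = 3 per day). The share of type II cadherins went from 4.63% ± 0.304 to 25% ± 1.44, and that of delta-1 protocadherins from 10.8% ± 1.87 to 32.7% ± 2.35. Without length scaling, the change was 12.2 percentage points for type II in place of 20.4, and 41.3 for delta-1 in place of 21.9. The other protocadherins went from 0.181% ± 0.0463 to 1.31% ± 0.14. In these 4 groups the days did not overlap (2-sided exact permutation p = 0.1 each, 0.15 after Benjamini-Hochberg adjustment over 6 groups). Delta-2 protocadherins, at 13% ± 1.54 and 12.2% ± 1.52 (exact permutation p = 0.5), and atypical cadherins, at 1.41% ± 0.399 and 1.49% ± 0.527 (exact permutation p = 0.8), differed by less than their spread. Within the delta-2 share the genes had changed places, since PCDH18 went from 11.6% to 3.31% of the family and PCDH17 from 0.178% to 4.83%.

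**Figure D3:**
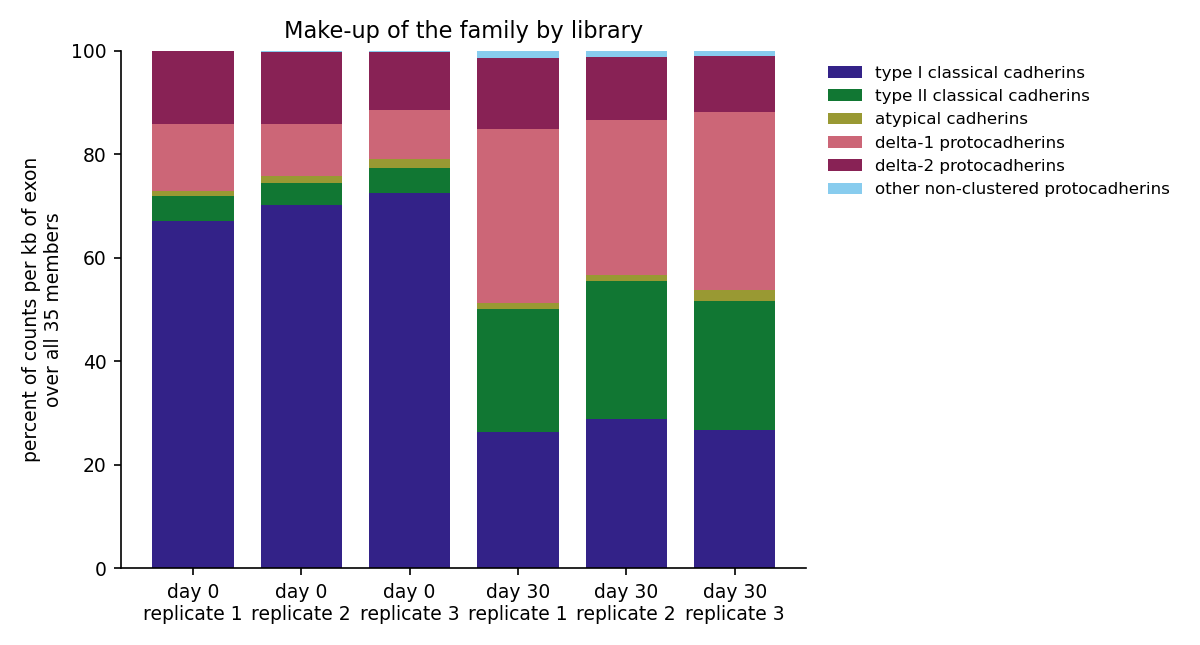
Percent of the counts per kb of exon of all 35 members held by each subfamily, 1 stacked bar per library. Type I cadherins fill 67 to 72.6% of the day 0 bars and 26.3 to 28.9% of the day 30 bars, and type II cadherins and delta-1 protocadherins fill most of the room between.

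Replicates of a day differed more for some members than for others. Among members with a mean of at least 1 CPM, the coefficient of variation had a median of 20.3% over 20 members on day 0 and 15% over 30 members on day 30. It was largest for CDH23 (72.3%), PCDH10 (64.5%) and CDH13 (61.9%) on day 0, and for CDH1 (72.1%), CDH13 (51.3%) and CDH6 (45.4%) on day 30. CDH8, CDH3 and PCDH18 were under 13% on both days.

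Many members lie in runs on a few chromosomes. On chromosome 5, CDH18, CDH12, CDH10, CDH9 and CDH6 follow each other with 1174.8 to 4072.6 kb between neighbours and at most 1 protein-coding gene in a gap, and all 5 rose. The 4 members of chromosome 13, all protocadherins (PCDH8, PCDH17, PCDH20 and PCDH9), rose as well. Chromosome 16 held both directions. CDH3 and CDH1 are 14.6 kb apart with no protein-coding gene between them, and both fell, whereas CDH8 and CDH11, 2906.7 kb apart with none between them, rose. On chromosome 18, CDH20 and CDH7 rose and CDH2 did not pass. Among these genes, CDH18, CDH12, CDH10, CDH9, PCDH8, PCDH20, PCDH9, CDH20 and CDH7 reached the filter's cutoff on day 30 alone. They entered the test through the day on which they were high, and 39.8% of all genes tested rose. Whether neighbours share a direction more often than other genes was not tested. The tested members were long genes, with a median span of 149 kb against 36.6 kb for the 14140 protein-coding genes tested. Across genes, which are not independent replicates, Spearman's rho between span and log2 change was 0.40 for the 30 members and 0.15 for the protein-coding genes.

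**Figure D4:**
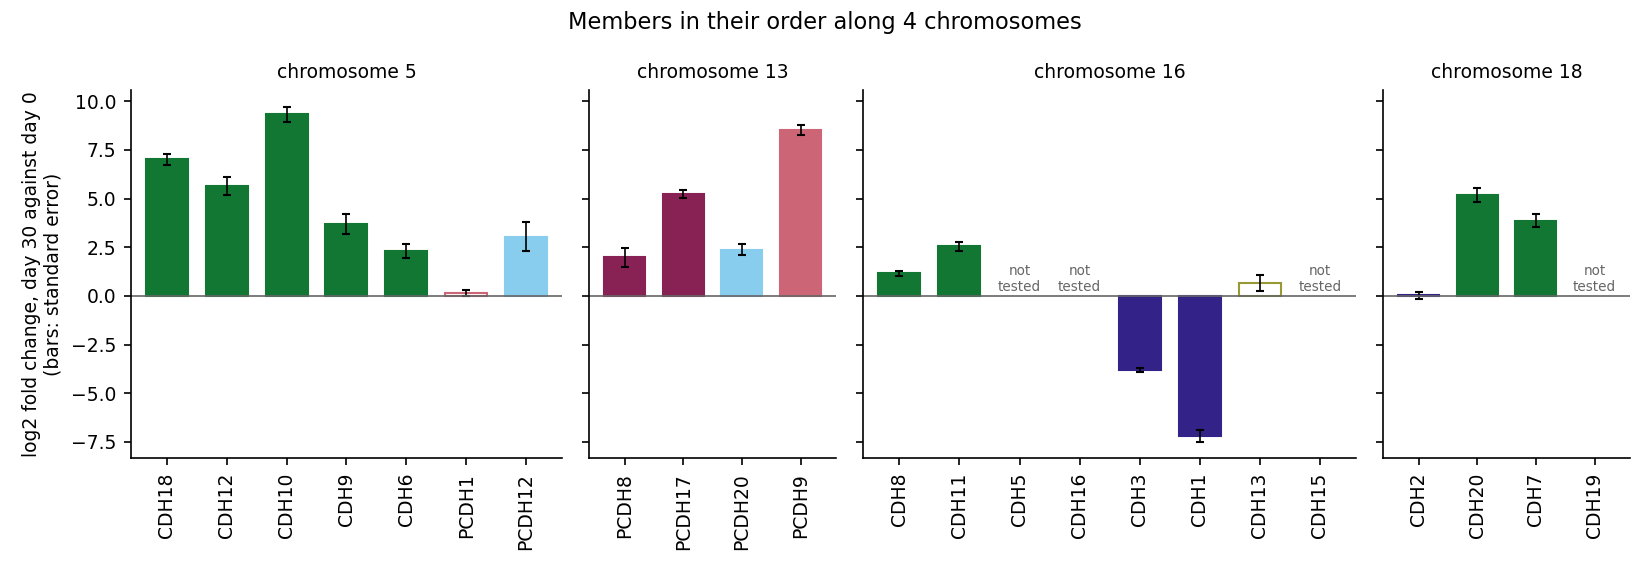
Log2 fold change of day 30 against day 0 (bars, with standard error) for the members of chromosomes 5, 13, 16 and 18 in their order along each chromosome, open where the adjusted p was 0.05 or more. The chromosome 5 run and chromosome 13 stand above 0, PCDH1 is close to it, and CDH3 and CDH1 are the pair below 0.

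Promoter sequence was matched in RefSeq's table (GRCh38.p14) for 22 of the members, with 35 windows of 250 bases before a transcription start. CDH1, CDH3, CDH6, CDH11 and CDH22 were among the members without a window. The shares below therefore do not cover the E-cadherin gene, and PCDH18 is the only member that fell among those matched. Windows were counted, not genes, and CDH18, CDH12 and CDH23 have 3 each. Searched on both strands, CCAAT was present in 60% of the member windows and 32% of all 35116 windows, CAGGTG or CACCTG in 11.4% and 17.5%, GGGCGG in 25.7% and 42.6%, and TATAAA in 11.4% and 10.7%. The CCAAT share is a description, and neither binding nor promoter activity was measured. Windows are shown for CDH10, the member with the largest log2 change, and for PCDH18, which fell, with CCAAT or its reverse complement in capitals, to show that a gene that rose and a gene that fell both hold these letters.
CDH10, chr5:24644979-24645228, minus strand: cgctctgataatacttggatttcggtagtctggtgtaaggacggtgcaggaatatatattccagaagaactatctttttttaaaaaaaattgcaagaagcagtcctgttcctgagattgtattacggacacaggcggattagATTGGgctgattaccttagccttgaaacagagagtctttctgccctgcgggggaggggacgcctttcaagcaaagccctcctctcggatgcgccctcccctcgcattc
PCDH18, chr4:137532495-137532744, minus strand: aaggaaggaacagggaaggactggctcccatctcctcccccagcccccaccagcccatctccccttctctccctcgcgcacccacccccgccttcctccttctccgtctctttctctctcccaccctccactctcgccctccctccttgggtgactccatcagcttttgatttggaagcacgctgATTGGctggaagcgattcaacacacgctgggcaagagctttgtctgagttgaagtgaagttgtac

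The catenins, which link cadherins to actin, and other linkers went both ways. Of 16 tested genes of this list, 9 fell and 4 rose (median log2 change −0.91). Among those that fell were beta-catenin (CTNNB1), from 661 ± 56.3 to 349 ± 21.3 CPM (log2 change −1.02), alpha-E-catenin (CTNNA1), from 444 ± 36.6 to 223 ± 19.8 CPM (−1.09) and p120-catenin (CTNND1), from 165 ± 6.31 to 101 ± 8.71 CPM (−0.80). Among those that rose were the neural alpha-N-catenin (CTNNA2), from 5.34 ± 1.73 to 243 ± 18.2 CPM (5.40 ± 0.21) and delta-catenin (CTNND2), from 7.73 ± 1.67 to 116 ± 5.96 CPM (3.82 ± 0.15). Vinculin, VCL, had the largest fall of the list, −3.34. With libraries scaled by total counts alone, 7 genes of the list rose and 9 fell.

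Of 8 tested repressors that act on the E-cadherin gene, 2 rose and 5 fell (median −1.40). The 2 were ZEB1, from 5.15 ± 1.16 to 97 ± 4.23 CPM (log2 change 4.14 ± 0.18), and ZEB2, from 2.4 ± 0.746 to 44.5 ± 8.1 CPM (4.11 ± 0.24), zinc finger factors that neurons and mesenchyme both express. SNAI2 was at 1.55 ± 0.489 and 3.28 ± 1.92 CPM and did not pass (log2 value 0.92, adjusted p = 0.0961, edgeR), except without day 30 replicate 1 (adjusted p = 0.0141). TWIST2 had the largest fall, from 2.07 CPM to 0.0665 CPM. Whether any of them acted on the cadherin genes was not measured.

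Epithelial junction and state genes fell with CDH1, 20 of 22 tested, with none higher (median −3.50). EPCAM, an adhesion protein of epithelia and stem cells, fell by 2.28 on the log2 scale, from 181 ± 20.6 to 39.4 ± 4.63 CPM, and the epithelial splicing factor ESRP1 had a log2 change of −7.80 ± 0.18. One gene of this list passed as higher with libraries scaled by total counts alone, without day 0 replicate 3 or without day 30 replicate 3. Desmosome genes fell in 5 of 6 tested cases, PKP3 most, at −6.04. DSC3 was the other, and 1 gene of the list passed as higher with no filter on low counts or without day 30 replicate 1. Only 4 desmosome genes fell with libraries scaled by total counts alone, with DESeq2, or without day 0 replicate 2 or day 0 replicate 3.

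The larger relatives of the cadherins rose and fell in shares near those of all genes (39.8% and 36.8%). Among FAT, Dachsous and seven-pass CELSR genes, which act in planar polarity and tissue growth, 4 of 9 rose, DCHS1 most, from 20.9 ± 2.18 to 223 ± 38.1 CPM (log2 change 3.33). The 4 that fell changed by less than 2-fold, with CELSR1 lowest at −0.73, and only 2 fell with libraries scaled by total counts alone or without day 0 replicate 3. All 7 tested cadherin-related and calsyntenin genes rose, CLSTN2, a calsyntenin of synaptic membranes, most, from 2.42 ± 1.06 to 424 ± 100 CPM (7.31 ± 0.28). Genes for the cutting and turnover of cadherins went both ways, with 6 higher and 6 lower of 15 (median −0.09), and 3 of those that rose did so by 2-fold or more. Their extremes were NUMBL, an adaptor for endocytosis, at 1.79, and APH1A, a gamma-secretase subunit, at −0.93.

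**Figure D5:**
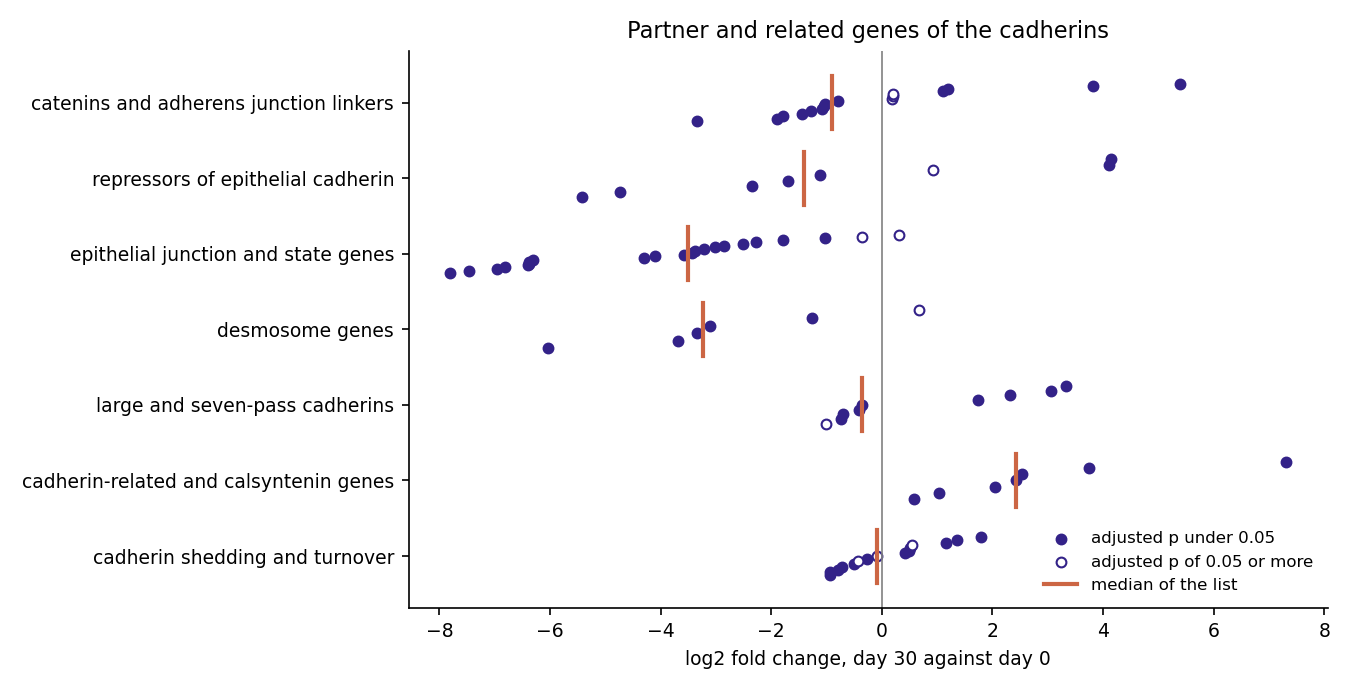
Log2 fold change of day 30 against day 0 for the tested genes of 7 partner lists, 1 point per gene, open where the adjusted p was 0.05 or more, with the median of each list as a line. All but 1 of the epithelial junction genes lie left of 0, with a median of −3.50, cadherin-related and calsyntenin genes lie right of it, and catenins reach from −3.34 to 5.40.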

How the data were processed

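The authors deposited 1 table of expected counts per Ensembl gene for 6 libraries of total RNA, that is, read counts that hold fractions of reads, as 92.6% of the values are whole numbers. The libraries were depleted of ribosomal RNA and made with a stranded kit, per the labels' protocols, and the build hg38 and FastQC 0.11.9 come from the list per the submitters' processing notes. For the aligner, counting program and strand setting the record is silent (not given in the sources used here). Values were rounded to whole numbers and tested in R 4.3.3 with edgeR 4.0.16 (quasi-likelihood test, TMM, filterByExpr, threshold 0.05, 2-sided), and with DESeq2 1.42.0 as an alternative. Standard errors are approximate, the absolute log2 change over the square root of F. CPM were scaled by total counts. Symbols, positions and exon lengths came from GENCODE release 29 (94.2% of entries matched). The fit was tested on simulated data in which far fewer genes changed than were called here, so that test does not cover so wide a change. Columns of values not used numbered 0.

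The members and lists were chosen with earlier results of these data known. Every member with a mean of at least 1 CPM on either day is given by library, and of the partner lists 9 genes set by name are given, with the largest rise and fall among the passing genes of each list. DSC3, PDGFRB, RNF14 and C10orf105 were named outside this rule, after their values were seen. Floors and intervals cover counting error only.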

Additional observations from a re-analysis of the deposited data

How the results depend on the processing

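Of the values of single genes under the alternatives, 568 kept their direction and side of the threshold, 5 newly passed and 3 turned sign. The 3 were all of CDH2, at −0.16 without day 0 replicate 1, −0.05 without day 0 replicate 2 and −0.01 without day 30 replicate 2, with a highest value of 0.24. Members that rose numbered 21 to 23, and 5 fell with no filter on low counts. With no length scaling, the change in share (percentage points, day 30 minus day 0) was −49.4 for type I, 12.2 for type II, −0.637 for atypical cadherins, 41.3 for delta-1 and −4.66 for delta-2 protocadherins, against −42.6, 20.4, 0.0803, 21.9 and −0.872. Leaving out 1 library, the atypical share ranged from −0.221 to 0.299 and was −0.0916 without day 0 replicate 1. CDH13 also passed with no filter (adjusted p = 0.0014, edgeR). Deviations of same-numbered libraries from the mean of their day correlated at 0.075, −0.004 and −0.049. Those of differently numbered libraries correlated at −0.13 to 0.134, so no sign of pairing was seen. Pairing is not excluded by this, since only 3 libraries per day were centred on their own mean. With the replicate block, 23 members rose and 3 fell, CDH13 among those that rose (0.78), and the log2 ratio of CDH2 to CDH1 changed by 6.83 (exact sign-flip p = 0.25, the smallest that 3 pairs allow). Members with few day 0 counts are limited by depth.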
